A study of Mus musculus with 21 samples.

Results

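The Ran pathway of spindle assembly was followed through 10 genes in fully grown mouse oocytes: *Ran*, *Rcc1*, *Rangap1*, *Ranbp1*, *Ranbp2*, *Kpnb1*, *Kpna2*, *Kpna7*, *Tpx2* and *Dlgap5*. The genes were chosen by name, as the members of the Ran cycle and the spindle factors it releases, and each name was matched to its Ensembl identifier among the 54232 genes of the count table. The choice was made with earlier results of these data known. All 10 genes had reads in each of the 21 libraries.

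Ran is a small GTPase that is loaded with GTP by RCC1 on chromatin and switched off by RANGAP1 with its helpers RANBP1 and RANBP2. Importins, made of a beta subunit such as KPNB1 and an alpha adaptor such as KPNA2 or KPNA7, hold spindle factors inactive until GTP-bound Ran frees them near the chromosomes. TPX2, an Aurora A activator, and HURP, the product of *Dlgap5* that bundles microtubules, are among the factors freed, and mouse oocytes, which lack centrioles, build their spindle around chromatin with this gradient. KIF11, the kinesin deleted in these mice, slides antiparallel microtubules apart in the same spindle.

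The oocytes were at the germinal vesicle stage and came from females of 3 to 4 months. These had received equine chorionic gonadotropin or CARD HyperOva 48 h earlier, and the methods do not say which libraries had which. Each library held poly(A) RNA of 3 oocytes, and a mouse gave 1 or 2 libraries. Libraries of a group were therefore not all from separate animals, and p-values measure the spread between libraries, which may in part be technical. The 6 groups were *Kif11* wt/fl (WtFlox in the labels, n = 4), *Kif11* wt/fl with *Spo11*-Cre (n = 5), *Kif11* fl/del (FloxDel, n = 4), *Kif11* fl/del with *Spo11*-Cre (n = 4), *Kif11* fl/fl (FloxFlox) with *Gdf9*-Cre (n = 2) and *Kif11* fl/fl with *Zp3*-Cre (n = 2). Every group thus carried at least 1 floxed *Kif11* allele, the wt/fl controls included. *Spo11*-Cre is active from early meiotic prophase, whereas the *Gdf9* and *Zp3* promoters drive Cre in growing oocytes. The methods describe 17 libraries, and the 4 fl/fl libraries are not among them, so that genotype, driver and set of libraries cannot be told apart when fl/fl is set against wt/fl.

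The libraries held between 7205010 and 18454549 counts assigned to genes, with 12729969 to 14283549 in wt/fl and fewer in fl/fl, 9192854 to 10759741 with *Gdf9*-Cre and 7801470 to 8188483 with *Zp3*-Cre. *Kif11* itself averaged 34.5 ± 8.46 CPM (SD), its count scaled to 1000000 counts of the library, in wt/fl, 24.6 ± 5.04 with *Spo11*-Cre, 11.9 ± 3.06 for fl/del, which fell to 1.78 ± 0.685 once *Spo11*-Cre was added, and it lay between 4.27 and 7.95 CPM in the fl/fl libraries. All 12 oocyte markers were above 0 in every library, with summed levels from 23157 to 30679 CPM. Of 18 follicle cell markers, 7 to 13 were above 0 per library and their sum ran from 77.5 to 126 CPM, most of it from *Cyp19a1* and *Nr5a2*. *Foxl2* and *Wt1*, defining markers of granulosa cells and other ovarian somatic cells, were at 0 in all 21 libraries, but *Kitl* and *Dcn* were above 0 in all 21 and *Fshr*, *Star* and *Cyp11a1* in 19. *Inha* and *Cyp11a1* averaged 1.41 and 1.36 CPM in fl/fl and 0.461 and 0.525 CPM in the 17 other libraries. *Dcn*, *Kitl* and *Cyp19a1* were lower in fl/fl, at 2.80, 3.69 and 65.3 CPM against 3.52, 3.88 and 66.3 CPM. *Amh*, *Amhr2*, *Fshr*, *Gja1*, *Hsd17b1*, *Nr5a1*, *Nr5a2* and *Star* were higher in fl/fl too. *Inhba*, *Lhcgr* and *Col1a1* were lower. Most follicle cell markers with reads thus had a higher mean in fl/fl.

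Levels were compared between genes on the authors' TPM, transcript counts scaled to length and to 1000000 per library, as means over the 17 libraries of the *Spo11*-Cre background. The importin alpha gene *Kpna2* stood highest at 1863 ± 133 TPM (SD, n = 17), at rank 67 of the 27395 genes above 0. *Kpna7*, an importin alpha of oocytes and early embryos, followed at 695 ± 73.9 TPM. *Tpx2* was next at 226 ± 9.44 TPM. These 3 genes did not overlap in any library with the gene next in order. *Ran* at 104 ± 20.9 TPM and *Dlgap5* at 94.9 ± 9.32 TPM overlapped, with *Ran* the higher in 14 of 17 libraries. *Ranbp1* was at 45.5 ± 6.86 TPM and *Kpnb1* at 14.0 ± 2.27 TPM. The 3 lowest genes were regulators of Ran, but *Ranbp1*, also a regulator, stood above *Kpnb1*. *Rcc1* had 7.13 ± 1.94 TPM, *Ranbp2* 5.42 ± 0.937 TPM and *Rangap1* 2.05 ± 1.09 TPM, at rank 11519. The ranges of *Kpnb1* and *Rcc1*, of *Rcc1* and *Ranbp2*, and of *Ranbp2* and *Rangap1* overlapped. Adaptor transcripts thus far outnumbered those of their beta partner on this scale.

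**Figure D1:**
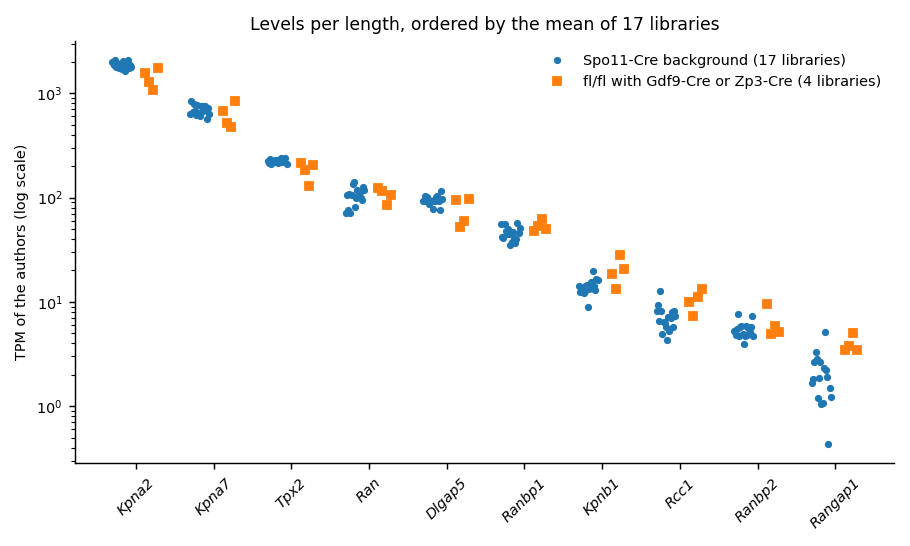
Level of the 10 Ran pathway genes as the authors' TPM on a log axis, with a circle for each of the 17 libraries of the Spo11-Cre background and a square for each of the 4 fl/fl libraries. Genes are ordered by the mean of the 17, in which Kpna2 and Kpna7 stand highest at means of 1863 and 695 TPM, and Rcc1, Ranbp2 and Rangap1 lowest, at 7.13, 5.42 and 2.05 TPM.

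The spread between libraries of 1 group differed between the genes. The fitted biological coefficient of variation, the library-to-library spread left after counting noise, was 9.87% for *Kpna2*, 10.0% for *Tpx2*, 10.5% for *Kpna7* and 10.6% for *Dlgap5*. It was 40.4% for *Rangap1* and 23.4% for *Rcc1*, both with low levels. In 8 of 10 genes it lay below the value fitted for all genes of that abundance, for *Kpna7* only by little (10.5% against 10.7%). The exceptions were *Ran* (14.6% against 12.3%) and *Rangap1* (40.4% against 38.0%). The share of all genes below their fitted value was not computed, so 8 of 10 does not set the pathway apart.

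*Ran* (chr5:129020069-129024323, plus strand, GRCm38) encodes the GTPase itself. It was at 76.7, 112, 82.5 and 116 CPM in wt/fl. With *Spo11*-Cre the wt/fl libraries had 77.5, 117, 147, 155 and 92.3 CPM. The fl/del libraries had 106, 130.1, 120.1 and 121 CPM, and those of fl/del with *Spo11*-Cre 109, 109, 139 and 129 CPM. The lowest libraries of wt/fl with and without *Spo11*-Cre stood alike and the 4 groups overlapped. The log2 fold change against wt/fl was 0.31 (SE 0.13, adjusted p = 0.234, edgeR) for wt/fl with *Spo11*-Cre. It was 0.32 for fl/del both without (adjusted p = 0.580) and with *Spo11*-Cre (adjusted p = 0.409). These 3 comparisons share their control libraries. The first passed the threshold without *Spo11*-Cre replicate 1, the library at 77.5 CPM, with a log2 fold change of 0.43 (adjusted p = 0.0382, edgeR). It was lower without *Spo11*-Cre replicate 4 (0.20, adjusted p = 0.534), *Spo11*-Cre replicate 3 (0.22, adjusted p = 0.455) or wt/fl replicate 1 (0.21, adjusted p = 0.505). *Ran* has a copy elsewhere in the genome, *Gm13461*, with 97.3% identity, whose counts came to 1.41% of those of *Ran*.

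*Rcc1* (chr4:132331919-132353605, minus strand) encodes the exchange factor that charges Ran with GTP. It was at 13.0, 14.5, 10.4 and 19.5 CPM in wt/fl and at 13.0, 7.97, 10.3, 10.0 and 9.54 CPM in wt/fl with *Spo11*-Cre. The fl/del libraries held 6.78, 11.3, 8.61 and 11 CPM, and fl/del with *Spo11*-Cre 12.6, 9.57, 13.0 and 11.6 CPM. The wt/fl mean rested in part on replicate 4, and all 4 groups overlapped. Against wt/fl the log2 fold change was -0.47 (adjusted p = 0.314, edgeR) with *Spo11*-Cre and -0.58 (adjusted p = 0.577) in fl/del.

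*Rangap1* (chr15:81704248-81745530, minus strand), which encodes the GTPase activator, had only 16 to 87 counts per library. The wt/fl libraries held 3.36, 3.53, 5.31 and 6.41 CPM, and wt/fl with *Spo11*-Cre 5.67, 2.45, 3.79, 5.42 and 2.21 CPM. The fl/del libraries ran from 2.11 to 10.7 CPM and those of fl/del with *Spo11*-Cre from 0.906 to 3.84 CPM. *Rangap1* also varied most between libraries, and the interval of its fold change over the pairs of groups reached from 0.254 to 2.40. *Ranbp1* (chr16:18239784-18248732, minus strand), whose product helps RANGAP1 at the free GTPase, kept between 24.8 and 40.6 CPM in the 17 libraries. *Ranbp2* (chr10:58446920-58494356, plus strand), a nuclear pore protein that holds RANGAP1, kept between 19.9 and 36.2 CPM. For both genes the ranges of all 4 groups overlapped. *Ranbp1* and *Trmt2a* on the other strand share 54 exonic bases, and the reads carry no strand, so that reads there cannot be told apart. *Ranbp1* also shares 281 exonic bases with *Gm49776* on the same strand. *Kpnb1* shares 466 with *Gm11583* on the other strand. Both of these other genes had 0 counts, and the part of the overlaps in the levels was not tested.

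**Figure D2:**
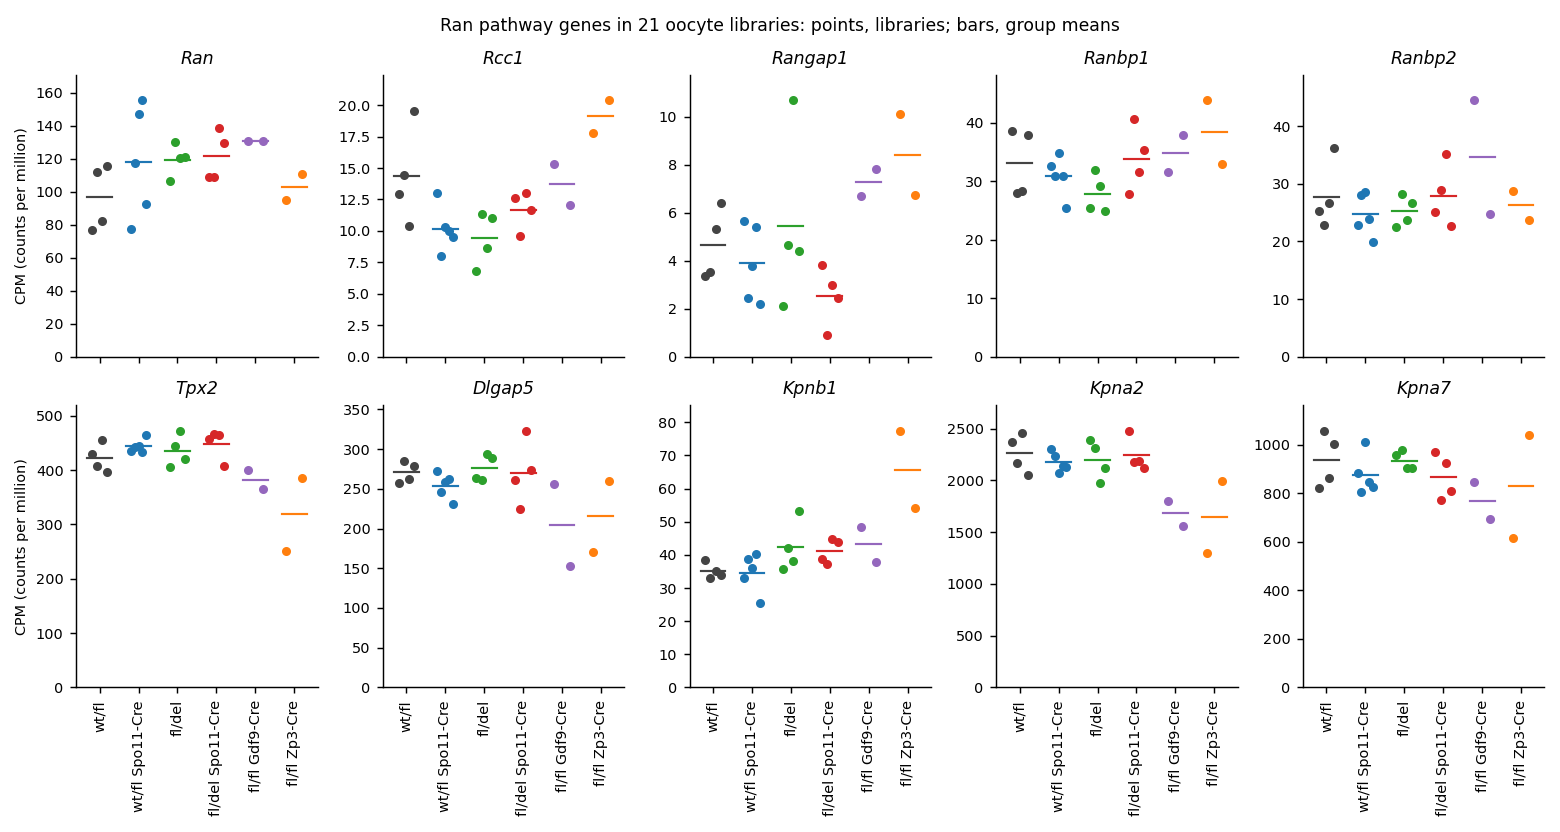
CPM of each Ran pathway gene in the 21 libraries by group, with a point for each library and a bar for the group mean. The 4 groups of the Spo11-Cre background overlap for Kpna2, Tpx2, Dlgap5 and Kpna7, while all 4 fl/fl libraries lie below the 4 wt/fl libraries for Kpna2.

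*Kpna2* (chr11:106988629-106999541, minus strand) was the most abundant of the 10 transcripts and gave the clearest change between groups. The bases just before its first exon are shown because its lower level in fl/fl oocytes is the main result here. They were read from the RefSeq promoter table at chr11:106999542-106999775 (GRCm38.p6, minus strand), 234 bases that end at the annotated start. Capitals mark the 2 motifs described after it, the second of them the CCAAT box:
Kpna2: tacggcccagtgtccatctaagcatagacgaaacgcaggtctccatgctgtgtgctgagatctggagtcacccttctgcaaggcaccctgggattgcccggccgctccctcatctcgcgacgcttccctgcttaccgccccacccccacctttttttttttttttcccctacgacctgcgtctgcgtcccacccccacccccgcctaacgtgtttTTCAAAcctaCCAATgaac
The CCAAT box and the cell cycle homology region, whose letters are TTTGAA, are found in promoters of many genes of mitosis. Both were searched on both strands in the 250 bases before each start. The CCAAT box reads ATTGG on the other strand. The homology region reads TTCAAA there, as printed above. The CCAAT box was in 33.8% of the 32851 promoters and in 4 of the 8 Ran pathway genes with an entry, namely *Kpna7*, *Kpnb1*, *Kpna2* and *Ranbp1*. The homology region was in 16.0% of all promoters and in 4 of 8, with *Rcc1* in place of *Kpnb1*. Both were in 5.55% of all promoters and in 3 of 8. A match describes letters, not a bound site or a cause.

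In the wt/fl libraries *Kpna2* stood at 2369, 2167, 2455 and 2057 CPM. In wt/fl with *Spo11*-Cre it stood at 2305, 2241, 2075, 2135 and 2127 CPM. The fl/del libraries had 2387, 2312, 1978 and 2120.2 CPM, and fl/del with *Spo11*-Cre 2479, 2176, 2189.8 and 2124 CPM. The 4 groups overlapped throughout, although *Kif11* fell by 4.29 on the log2 scale from wt/fl to fl/del with *Spo11*-Cre. Over all 6 pairs of these groups the 95% intervals of the *Kpna2* fold change stayed between 0.884 and 1.12.

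*Kpna7* (chr5:144983519-145084030, minus strand), the oocyte adaptor, was at 822, 1057, 862 and 1004 CPM in wt/fl and averaged 874 ± 81.6 CPM (SD, n = 5) with *Spo11*-Cre, 935 ± 37.5 CPM in fl/del and 869 ± 94.9 CPM in fl/del with *Spo11*-Cre. *Kpnb1* (chr11:97159714-97187881, minus strand), the beta subunit that binds Ran, was at 38.4, 33.2, 35.1 and 34.1 CPM in wt/fl, and averaged 34.7 ± 5.89 CPM with *Spo11*-Cre. For the fl/del genotype its mean was 42.2 ± 7.66 CPM without and 41.1 ± 3.75 CPM with *Spo11*-Cre. All 4 groups overlapped for both genes. The intervals of the fold change over the 6 pairs stayed within 0.813 to 1.19 for *Kpna7* and within 0.787 to 1.48 for *Kpnb1*.

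*Tpx2* (chr2:152847964-152895321, plus strand), encoding the Aurora A activator that nucleates microtubules, was at 429, 408, 455 and 396 CPM in wt/fl. With *Spo11*-Cre it was at 435, 442, 444, 433 and 465 CPM, in fl/del at 406, 444, 472 and 421 CPM, and in fl/del with *Spo11*-Cre at 457, 466, 464 and 407 CPM. The last of these libraries stood apart from the 3 others of its group. *Dlgap5* (chr14:47387779-47418407, minus strand), encoding HURP, was at 258, 286, 263 and 279 CPM in wt/fl, at 272, 246, 259, 262 and 230.4 CPM with *Spo11*-Cre, at 264, 261, 294 and 289 CPM in fl/del and at 261, 224, 323 and 274 CPM in fl/del with *Spo11*-Cre. For both factors the 4 groups overlapped, and fl/del with *Spo11*-Cre gave the widest spread of *Dlgap5*. The intervals of the fold change stayed within 0.875 to 1.19 for *Tpx2* and 0.844 to 1.22 for *Dlgap5*.

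The 6 pairs of groups of the *Spo11*-Cre background, and the test of whether *Spo11*-Cre acted differently on wt/fl and fl/del, gave 70 tests of the 10 genes. edgeR called 0 of them at an adjusted p under 0.05, with 8 at an unadjusted p under 0.05 and a lowest adjusted p of 0.234. Over all genes, 7.11% to 15.0% per comparison were at an unadjusted p under 0.05 in edgeR. DESeq2 also called 0, but gave no adjusted p for 3 of the 70. Among all genes tested, edgeR called 2.19% in wt/fl with *Spo11*-Cre against wt/fl, 0.0223% in fl/del against wt/fl and 0.197% in fl/del with *Spo11*-Cre against wt/fl. It called 0.201% in fl/del against wt/fl with *Spo11*-Cre, 0.0357% between the genotypes that carry *Spo11*-Cre, 0.241% in fl/del with against without *Spo11*-Cre and 0.103% for the difference in the effect of *Spo11*-Cre. With so few genes called in all, 0 of 10 does not set the Ran pathway apart. The median log2 fold change of the 10 genes ran from -0.07 to 0.04, beside -0.02 to 0.03 for all genes. The intervals, like the p-values, rest on the spread between libraries, not between mice. They are not adjusted for the number of tests, and the 6 pairs share groups. They therefore bound a missed difference between these libraries only. In 47 of the 60 pairwise tests the 95% interval lay within 1.5-fold in either direction, namely in all 6 tests of *Ranbp1*, *Ranbp2*, *Tpx2*, *Dlgap5*, *Kpnb1*, *Kpna2* and *Kpna7*, in 4 of *Ran*, in 1 of *Rcc1* and in 0 of *Rangap1*.

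**Figure D3:**
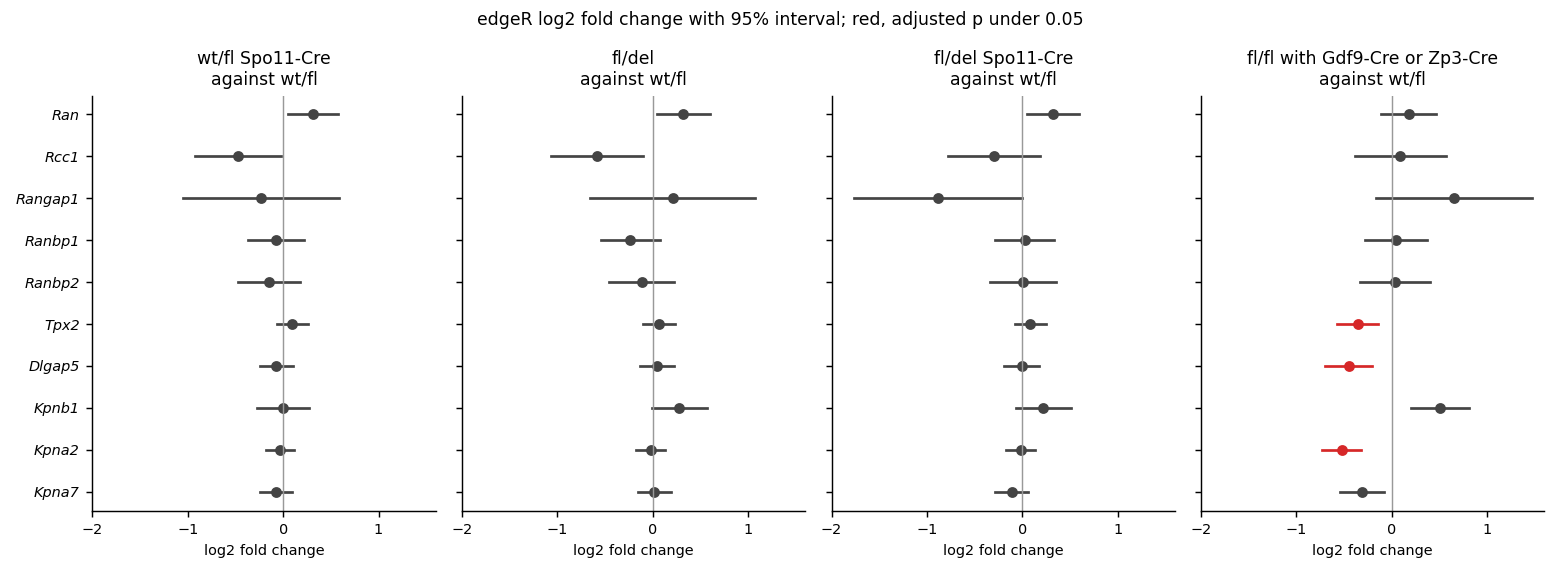
Log2 fold change of each Ran pathway gene with its 95% interval from edgeR, in a panel for each of the comparisons against wt/fl. In the panels of the Spo11-Cre background 0 genes pass an adjusted p under 0.05, while Kpna2, Dlgap5 and Tpx2 pass in fl/fl against wt/fl at -0.53, -0.45 and -0.36.

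In oocytes from fl/fl mice with *Gdf9*-Cre or *Zp3*-Cre, 3 of the 10 genes were lower than in wt/fl, namely *Kpna2*, *Dlgap5* and *Tpx2*, and 0 passed the test in the higher direction. DESeq2 called 4, with *Kpnb1* as the only higher gene. Among all genes tested, edgeR called 2.79%, 237 higher and 410 lower. The median log2 fold change was 0.04 over the 10 genes and -0.03 over all genes. Since each library pools 3 oocytes, fewer oocytes with a transcript and less of it per oocyte cannot be told apart.

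*Kpna2* was at 1804 and 1561 CPM with *Gdf9*-Cre and at 1299 and 1996 CPM with *Zp3*-Cre. All 4 libraries lay below the lowest wt/fl library at 2057 CPM, and *Zp3*-Cre replicate 2 lay just above the lowest fl/del library. The 4 values were 79.8%, 69.0%, 57.4% and 88.2% of the wt/fl mean of 2262 CPM. The log2 fold change was -0.53 (SE 0.10, 95% interval -0.73 to -0.32, adjusted p = 0.000635, edgeR), a change of -30.6%. It passed the threshold under all 17 alternatives tried, with a log2 fold change from -0.72 to -0.36. None of these summed libraries with a shared name prefix, although the 2 libraries of each driver share 1. How the call depends on that was not tested. Reads of *Kpna2* can be shared with near-identical copies. Counts of the copy *Gm10184*, with 99.9% identity, came to 1.51% of those of *Kpna2* in wt/fl, 1.85% with *Gdf9*-Cre and 1.34% with *Zp3*-Cre. Counts of *Gm10259*, with 99.8% identity, came to 0.384% to 0.410% in the 4 groups of the *Spo11*-Cre background but to 1.74% with *Gdf9*-Cre and 1.91% with *Zp3*-Cre. The part of these copies in the lower *Kpna2* level was not tested.

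*Dlgap5* was at 256 and 152 CPM with *Gdf9*-Cre and at 171 and 260.2 CPM with *Zp3*-Cre. A library of each driver stood far below the wt/fl range, and the other library of each driver lay inside it or just under it. The log2 fold change was -0.45 (SE 0.12, 95% interval -0.70 to -0.21, adjusted p = 0.0226, edgeR), a change of -27.0%. The call was lost without *Gdf9*-Cre replicate 2 (log2 fold change -0.28, adjusted p = 0.315), without *Zp3*-Cre replicate 1 (-0.29, adjusted p = 0.322), and without wt/fl replicate 2 (-0.43, adjusted p = 0.0755) or 4 (-0.44, adjusted p = 0.0589). It was also lost with only the compared groups fitted (-0.44, adjusted p = 0.173) and with the *Gdf9*-Cre (-0.48, adjusted p = 0.0965) or the *Zp3*-Cre libraries alone (-0.43, adjusted p = 0.144), and it passed in 10 of 17 alternatives.

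*Tpx2* was at 400.0 and 364 CPM with *Gdf9*-Cre and at 252 and 385 CPM with *Zp3*-Cre. *Zp3*-Cre replicate 1 stood alone at the bottom, at 59.6% of the wt/fl mean, while *Gdf9*-Cre replicate 1 fell inside the wt/fl range. The log2 fold change was -0.36 (SE 0.11, 95% interval -0.57 to -0.15, adjusted p = 0.0458, edgeR), a change of -22.0%. Without *Zp3*-Cre replicate 1 it was -0.19 (adjusted p = 0.497), and it passed in 7 of 17 alternatives. Leaving out *Gdf9*-Cre replicate 1 or 2, or any wt/fl library, also lost the call, with a log2 fold change from -0.39 to -0.31 and an adjusted p from 0.0538 to 0.187.

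The same library, *Zp3*-Cre replicate 1, was the lowest of all 21 for *Kpna2*, *Kpna7* and *Tpx2* and the highest for *Kpnb1*. *Kpnb1* was at 48.5 and 37.9 CPM with *Gdf9*-Cre and at 77.4 and 54.1 CPM with *Zp3*-Cre. The *Zp3*-Cre libraries lay above all libraries of the *Spo11*-Cre background, whereas *Gdf9*-Cre replicate 2 fell within the wt/fl range. The log2 fold change of 0.51 (95% interval 0.20 to 0.81, adjusted p = 0.0517, edgeR) missed the threshold, and it passed in 9 of 17 alternatives.

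*Kpna7* was at 846 and 694 CPM with *Gdf9*-Cre and at 616 and 1040.5 CPM with *Zp3*-Cre. The last of these was among the highest *Kpna7* values of all, so that the fl/fl libraries reached from below the wt/fl range to near its top. Its log2 fold change was -0.31 (95% interval -0.54 to -0.08, adjusted p = 0.141). The 5 genes of the GTPase cycle did not pass either. *Rangap1* had 6.69 and 7.83 CPM with *Gdf9*-Cre and 10.1 and 6.72 CPM with *Zp3*-Cre, above all 4 wt/fl libraries, with a log2 fold change of 0.65 whose interval ran from -0.17 to 1.48 (adjusted p = 0.481, edgeR). *Ran*, *Rcc1*, *Ranbp1* and *Ranbp2* had log2 fold changes between 0.03 and 0.18.

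**Figure D4:**
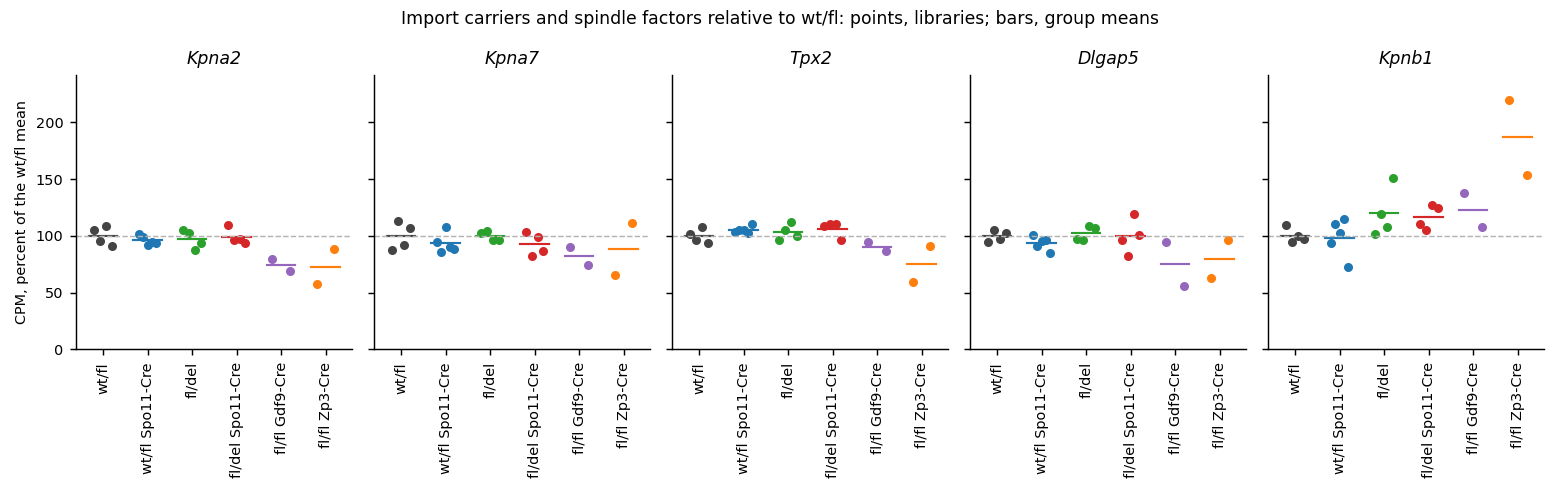
Level of Kpna2, Kpna7, Tpx2, Dlgap5 and Kpnb1 in each of the 21 libraries as a percent of the wt/fl mean in CPM, by group, with bars for group means. In fl/fl Kpna2 lies at 79.8% and 69.0% with Gdf9-Cre and at 57.4% and 88.2% with Zp3-Cre, and Kpnb1 at 138%, 108%, 220% and 154%.

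Between *Gdf9*-Cre and *Zp3*-Cre, 0 of the 10 genes passed in edgeR or in DESeq2, with 0.891% of all genes called by edgeR. The lowest adjusted p was 0.353, for *Kpnb1* (log2 fold change -0.56, *Gdf9*-Cre less *Zp3*-Cre). The 95% interval of this fold ran from 0.502 to 0.911. *Ran* had 131 CPM in both *Gdf9*-Cre libraries and 94.7 and 111 CPM with *Zp3*-Cre, and the interval of its fold ran from 0.979 to 1.72. For *Kpna2* the interval ran from 0.849 to 1.27. For *Tpx2* the log2 fold change was 0.29 (adjusted p = 0.731). Without *Zp3*-Cre replicate 2 it was 0.69 (adjusted p = 0.00865, edgeR), but that leaves *Zp3*-Cre with 1 library, the low replicate 1, which is assumed to vary like the other groups.

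Other genes of the pathway were taken from 3 lists. Of 8 partners of the Ran cycle, 7 could be tested, *Rangrf* being above 0 in 1 library. *Ranbp3*, a cofactor of nuclear export, fell from 118 ± 16.7 CPM in wt/fl (SD, n = 4) to 72.6 ± 13.9 CPM in wt/fl with *Spo11*-Cre (n = 5), a log2 fold change of -0.68 (SE 0.11, adjusted p = 0.000117, edgeR). It averaged 85.4 ± 7.62 CPM in fl/del without Cre and 92.5 ± 5.46 CPM in fl/del with *Spo11*-Cre, both below the wt/fl mean without passing the test. The effect of *Spo11*-Cre on *Ranbp3* differed between wt/fl and fl/del by 0.77 on the log2 scale (adjusted p = 0.0253) and passed in 13 of 24 alternatives. The highest adjusted p was 0.114, without fl/del replicate 3. The list had 2 calls, both of *Ranbp3*, in 49 tests over the 7 comparisons of the *Spo11*-Cre background, where 670 of 156681 tests over all genes were called (0.428%). It had 0 in fl/fl against wt/fl, where 2 were at an unadjusted p under 0.05 and DESeq2 called 1. Over all genes, 14.3% were at an unadjusted p under 0.05 there, and edgeR called 2.79%.

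Of 23 further import and export carriers, edgeR called 0 in 161 tests over those 7 comparisons, with 12 at an unadjusted p under 0.05. The share of all genes at such a p was 7.11% to 15.0% per comparison. DESeq2 also called 0, but gave no adjusted p for 1 to 11 of the carriers in each comparison. In fl/fl against wt/fl edgeR called 1 of 23, a higher one, beside 2.79% of all genes called. A single call does not set the carriers apart. *Tnpo1*, the carrier transportin 1, went from 62.9 ± 5.49 CPM in wt/fl to 75.9 and 95.6 CPM with *Gdf9*-Cre and 139 and 108 CPM with *Zp3*-Cre, above all wt/fl libraries. Its log2 fold change was 0.62 (SE 0.13, adjusted p = 0.00138, edgeR), and for the *Gdf9*-Cre libraries alone 0.38 (adjusted p = 0.284). The median of the 23 carriers was 0.05. Between the drivers their median was -0.49 (*Gdf9*-Cre less *Zp3*-Cre) against 0.00 for all genes. edgeR called 0 of the 23, beside 0.891% of all genes, and DESeq2 called 1. In edgeR 7 of the 23 were at an unadjusted p under 0.05, beside 7.14% of all genes.

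Of 27 other spindle factors under RanGTP, edgeR called 5 in 189 tests over the 7 comparisons of the *Spo11*-Cre background, 4 of *Rae1* and 1 of *Kif22*, and DESeq2 called 10. Over all genes edgeR called 0.428% of such tests, and DESeq2 called more genes than edgeR in each of the 7 comparisons. The medians of the 3 lists in these comparisons lay between -0.16 and 0.23 for the partners, -0.11 and 0.11 for the carriers and -0.12 and 0.07 for the spindle factors. Of the latter, 4 were lower in fl/fl than in wt/fl and 0 higher, with a list median of -0.13. They were *Kif22*, the chromosome-arm kinesin Kid (log2 fold change -0.51, adjusted p = 0.000754), *Nedd1*, which recruits gamma-tubulin (-0.43, adjusted p = 0.0235), *Tacc3*, a partner of Aurora A (-0.40, adjusted p = 0.0443), and *Aurka*, encoding Aurora A (-0.35, adjusted p = 0.0410, all edgeR). *Kif22* passed in 17 of 17 alternatives, *Nedd1* in 10, *Tacc3* in 7 and *Aurka* in 6. Without *Zp3*-Cre replicate 1 the last 3 had log2 fold changes of -0.24 (adjusted p = 0.399), -0.18 (adjusted p = 0.549) and -0.21 (adjusted p = 0.428). They also lost the call without *Gdf9*-Cre replicate 2, at an adjusted p of 0.199, 0.312 and 0.182, and without wt/fl replicate 2. *Kif22* also differed within the *Spo11*-Cre background, at 648 ± 38.1 CPM in wt/fl and 489.6 ± 32.4 CPM with *Spo11*-Cre (log2 fold change -0.38, adjusted p = 0.00309). Both *Kif22* calls share the 4 wt/fl libraries, which had the highest mean of all groups. *Kif22* averaged 550.1 ± 23.3 CPM in fl/del and 557 ± 61.0 CPM in fl/del with *Spo11*-Cre. In wt/fl with against without *Spo11*-Cre, 4 of 12 oocyte markers passed as well, beside 2.19% of all genes. *Nobox* (-0.42), *Zar1* (-0.32) and *Zp1* (-0.30) were lower and *Ooep* (0.33) higher. They passed in 17, 14, 10 and 12 of 17 alternatives, and their part was not tested. Of the 12 oocyte markers, *Zp3* (-0.32, adjusted p = 0.0419, edgeR) and *Zp1* (-0.47, adjusted p = 0.00483) were lower in fl/fl as well, beside 2.79% of all genes called. They passed in 10 and 12 of 17 alternatives, and 0 of the follicle cell markers passed in any comparison. The part of these markers in the lower spindle factors was not tested. Between the drivers *Ckap5*, a microtubule polymerase gene, was at 188 and 184 CPM with *Gdf9*-Cre and at 118 and 125 CPM with *Zp3*-Cre (log2 fold change 0.65, adjusted p = 0.0264, edgeR). It passed in 6 of 10 alternatives. Its log2 fold change stayed about as large but the call was lost without *Gdf9*-Cre replicate 1 (0.63, adjusted p = 0.106) or 2 (0.67, adjusted p = 0.109) and without *Zp3*-Cre replicate 1 (0.57, adjusted p = 0.212), each of which leaves that driver with 1 library.

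*Rae1*, whose product is an mRNA export and spindle factor, had the lowest adjusted p of the listed genes and was higher with *Spo11*-Cre in both genotypes. It was at 207 ± 11.4 CPM in wt/fl and 188 ± 17.8 CPM in fl/del (SD, n = 4 each), but at 352 ± 28.7 CPM in wt/fl with *Spo11*-Cre (n = 5) and 404 ± 41.6 CPM in fl/del with *Spo11*-Cre (n = 4). The libraries with and without *Spo11*-Cre did not overlap, the highest without it being at 216 CPM and the lowest with it at 320.3 CPM. The fl/fl libraries, which carry other drivers, stood at 179.9 to 200.4 CPM. The log2 fold change with against without *Spo11*-Cre was 0.79 for the wt/fl genotype (adjusted p = 8.68e-09) and 1.08 for fl/del (adjusted p = 6.43e-13, edgeR). *Rae1* (chr2:173000117-173015739, plus strand) starts 6540 bases after the end of *Spo11* (chr2:172977700-172993576, plus strand), the gene whose promoter drives this Cre. The part of that neighbourhood in the *Rae1* level was not tested.

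**Figure D5:**
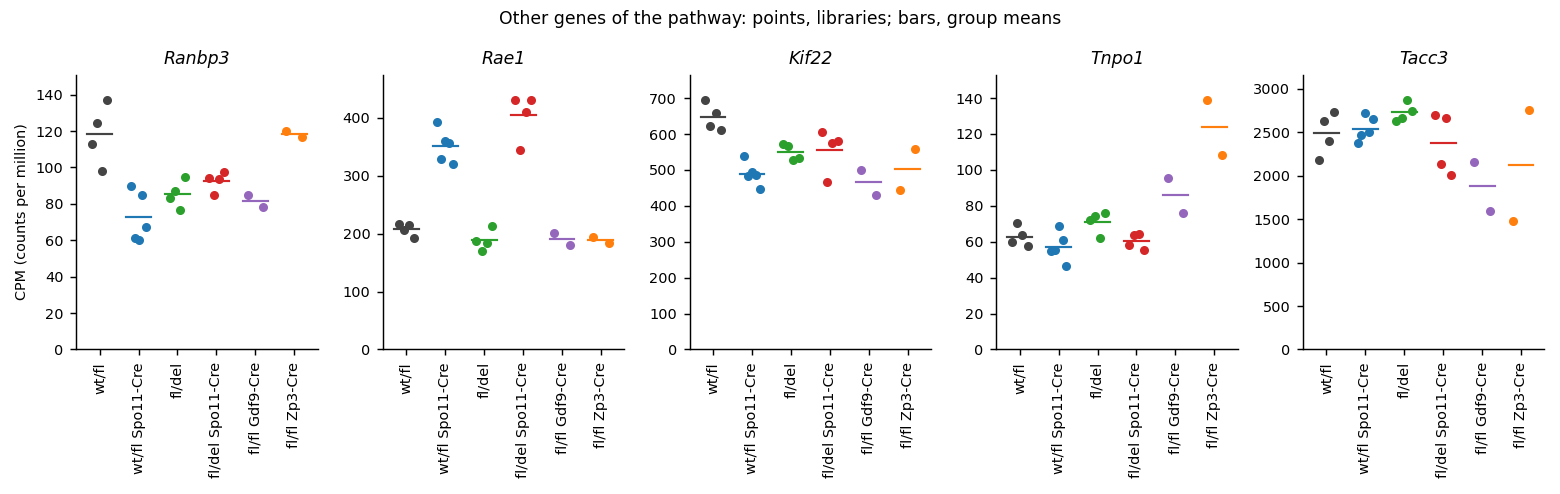
CPM of Ranbp3, Rae1, Kif22, Tnpo1 and Tacc3, from the further lists, with a point for each library by group and a bar for the group mean. Rae1 lies at 320.3 CPM or above in all libraries with Spo11-Cre and at 216 CPM or below in all others, and the fl/fl libraries lie above the wt/fl libraries for Tnpo1 and below them for Kif22.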

How the data were processed

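Mouse oocyte poly(A) RNA was converted with SMART-Seq v4 and Nextera XT, which do not mark strand. The submitters' processing notes name fastp, HISAT2 2.2.1, featureCounts 2.0.3 (Subread) and GRCm38. The authors deposited raw counts per gene over all exons, and TPM made from them, in which the deposited TPM values are scaled to length. The methods state that uniquely mapped reads were counted. Library totals of the all-exon counts were 1.92 to 1.95 times those of the counts with *Kif11* over exon 22, and the sources used here do not state whether either counted read pairs. The tables in which *Kif11* was counted over exon 1, and the TPM table with *Kif11* over exon 22, were not used. The counts with exon 22 served as an alternative.

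CPM is the count over the library total. The 9 comparisons were fitted with edgeR 4.0.16 (R 4.3.3, TMM library sizes, quasi-likelihood test) over genes counted at least once in each of 3 or more libraries, 22383 genes among the 17 *Spo11*-Cre background libraries and 23225 among all 21. p-values were Benjamini-Hochberg adjusted over all genes tested, at 0.05, and the intervals are 95% intervals of the fit. The fl/fl comparisons used all 21 libraries, with both drivers weighted equally. The scripts were tested on simulated data. The 21 libraries had between 7205010 and 18454549 counts, and every fl/fl library had fewer than every wt/fl library.

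Alternatives were RLE factors, DESeq2 1.42.0, no filter on low counts, other sets of libraries in the fit, the exon 22 counts and a replicate block. Each library was also left out in turn. Libraries with a shared name prefix were summed for comparisons of the *Spo11*-Cre background only. Alternatives with *Gdf9*-Cre or *Zp3*-Cre alone, or against the mean of the other 4 groups, were added after seeing the data. The 10 genes, *Kif11* and, from the further lists, every gene with an adjusted p under 0.05 were named. The members and lists were chosen with earlier results of these data known. Promoters came from RefSeq (GRCm38.p6), with an entry for 8 of the 10 genes. Python 3.11.15 with pandas 2.3.3, numpy 2.4.6, scipy 1.17.1 and matplotlib 3.10.9 was used.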

Additional observations from a re-analysis of the deposited data

Results flagged for a closer look

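*Tpx2* in fl/del with *Spo11*-Cre had a library far from the others of its group. Replicate 4 was at 407 CPM and the other libraries of the group were at 457 to 466 CPM, so that its gap to the nearest of them took up 0.858 of the group's range. The group still overlapped with the other groups, since wt/fl reached down to 396 CPM. A set of 4 or 5 libraries was looked at for each of 10 genes in 4 groups, and chance alone flags about 1 in 20 such sets.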

How the results depend on the processing

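Of 1500 fold changes of the 10 genes under alternatives, 1469 kept their call, 17 were no longer called, 14 became called and 0 called values changed sign. Among calls of the 10 genes, wt/fl with *Spo11*-Cre against wt/fl had 0, but 1 with the replicate block (*Ran*, adjusted p = 0.0367) and 0 to 1 with a library left out. For fl/fl against wt/fl 3 genes were called, 5 with the replicate block, 1 with only the compared groups fitted, 1 with the *Gdf9*-Cre libraries alone, an alternative added after seeing the data, and 1 to 5 with a library left out. It was 1 (*Kpna2*) without wt/fl replicate 2, wt/fl replicate 4 or *Zp3*-Cre replicate 1, and 5 without *Zp3*-Cre replicate 2, which added *Kpnb1* and *Kpna7*. *Gdf9*-Cre against *Zp3*-Cre had 0, and 0 to 1 with a library left out. The cause was not tested. The replicate numbers did not pair libraries, since 0 of 42 same-numbered pairs correlated above 0.1 (-0.108 to 0.0503) and 4 of 21 libraries correlated best with their own number.

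Counts over all genes moved more. The main counts were 491 for wt/fl with *Spo11*-Cre against wt/fl, 5 for fl/del against wt/fl, 44 for fl/del with *Spo11*-Cre against wt/fl, 45 for fl/del and 8 for fl/del with *Spo11*-Cre against wt/fl with *Spo11*-Cre, 54 for fl/del with against without *Spo11*-Cre, 23 for the difference in effect, 647 for fl/fl and 207 between drivers. In that order DESeq2 gave 931, 21, 158, 91, 14, 91, 74, 1075 and 381. Without a filter the first 7 became 742, 80, 185, 116, 39, 134 and 138. With the replicate block the second to seventh became 96, 230, 99, 29, 143 and 96. All 21 libraries gave 252 for the first, 20 for the fourth, 5 for the fifth and 4 for the difference in effect. The exon 22 counts gave 82 for the third and 42 for the difference, and summed prefixes 11 for the latter. Only the compared groups gave 238 for fl/fl and 7 between drivers. Added alternatives gave 343 with *Gdf9*-Cre alone and 1464 against the mean of the other 4 groups. With a library left out they ran from 178 to 575, 1 to 18, 30 to 71, 20 to 50, 3 to 12, 37 to 60, 4 to 60, 303 to 1353 and 127 to 398. Intervals were widest for *Rangap1* and *Rcc1*, which had low counts and the highest spread between libraries.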
